A study of Rattus norvegicus with 3 samples.

Results

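Nogo and its receptor complex were described here through 8 genes of rat motor cortex: Rtn4, Omg, Rtn4r, Rtn4rl1, Rtn4rl2, Lingo1, Rtn1 and Rtn3. They were picked by exact gene name, as inhibitors of axon regrowth and their relatives, from 30957 genes listed per animal. Each name stood in 1 row, and all 8 passed the filter used for testing, a mean of at least 1 FPKM, the number of fragments per kilobase of a gene in 1000000 sequenced fragments. The animals were 3 male Sprague-Dawley rats, numbered 12, 24-4 and 33, with 1 library each. All had a cerebral ischemia followed by reperfusion, in which part of the brain loses its blood supply and regains it, and all received electroacupuncture at GB20 (Fengchi). The labels give a time of 8 weeks without saying from when it was counted. Neither the age, nor the side of the cortex, nor the way ischemia was produced is given in the labels. With 1 group and no untreated animals analysed here, the values describe levels and their spread between treated rats, and no effect of ischemia or acupuncture was tested.

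Nogo, the product of Rtn4, is a membrane protein of the reticulon family that sits in the endoplasmic reticulum and, in oligodendrocytes and neurons, also at the cell surface. There it can bind the Nogo receptor on axons, as can the myelin proteins MAG and OMgp, and the receptor acts with LINGO-1 and a neurotrophin receptor family protein to activate RhoA and halt growth cones. Adult neurons carry the receptor at synapses too, where it is known to limit structural plasticity. Rtn4 makes several protein forms, among them the long Nogo-A, and 1 value per gene does not separate them.

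Of the 8 genes, 6 had promoter sequences in RefSeq tables of build GRCr8, and the 100 bases before the start of 3 are shown: Rtn4r and Lingo1, which shared an order of the rats with the lowest value in rat 33, and Omg, which was lowest in rat 24-4. Sequences run 5′ to 3′ on the minus strand, and capitals mark the GC box GGGCGG or its reverse complement, overlapping matches included. They lie at chr11:96373555-96373654 for Rtn4r, chr8:65924167-65924266 for Lingo1 and chr10:64962051-64962150 for Omg.
Rtn4r: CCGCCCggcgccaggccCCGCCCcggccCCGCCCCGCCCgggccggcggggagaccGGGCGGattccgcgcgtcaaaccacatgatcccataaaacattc
Lingo1: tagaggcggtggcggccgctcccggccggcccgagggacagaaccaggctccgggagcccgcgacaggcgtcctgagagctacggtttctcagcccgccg
Omg: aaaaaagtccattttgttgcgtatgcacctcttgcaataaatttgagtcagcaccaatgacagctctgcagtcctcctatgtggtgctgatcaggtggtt
In the 250 bases before the start, searched on both strands, Rtn4r held 6 GC boxes, and Lingo1 and Omg held 0. A GC box was present in 30.5% of 33469 promoters. The G and C content of the same window was 76.4% for Rtn4r, 78.0% for Lingo1 and 41.6% for Omg, against a median of 51.2%. The other matched promoters, of genes that were also lowest in rat 33, did not all resemble those of Rtn4r and Lingo1: Rtn4rl2 had 74.8% with 2 GC boxes, Rtn3 64.8% with 1, and Rtn1 47.6% with 0. Mag, which is not among the 8 genes and was lowest in rat 12, had 70% with 0 GC boxes. A link between promoter sequence and the order of rats was not tested. Omg and Rtn1 each held 1 CCAAT box (CCAAT), a motif present in 34.0% of promoters, and Rtn4r and Lingo1 held 0. None of the 3 held TATAAA, which 12.9% of promoters held.

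The libraries had estimated depths of 13010000 to 17250000 fragments. Mitochondrial transcripts took 14.4% to 26.6% of all FPKM, and leaving them out and rescaling raised all other values by 0.45, 0.22 and 0.34 on the log2 scale in rats 12, 24-4 and 33. The rat in which each of the 8 genes was lowest was the same with that rescaling and with median ratio scaling. Which rat was highest was not: of the 8 genes, Rtn4, Rtn4r and Rtn4rl1 turned highest in rat 12 under both, and Lingo1 under the first. The excitatory markers of cortex were present in every rat, among them Slc17a7, which loads glutamate into vesicles, at 367 to 709 FPKM and Tbr1, a transcription factor of deep layers, at 11.7 to 43.1. Of the 18 gene lists examined, choroid plexus markers had the largest median SD, with all 6 matched of 7 highest in rat 33 and lowest in rat 24-4, and summed levels of 3337, 129 and 13202 FPKM in rats 12, 24-4 and 33. Limma called 5 of these 6 genes variable (Ttr, the most abundant, Clic6, Kl, Kcnj13 and Sostdc1), and Folr1, the lowest, had an adjusted p of 0.0638. Their part in the results below was not tested.

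In every rat the reticulon genes Rtn1, Rtn3 and Rtn4, as well as Omg and Lingo1, were above all 3 receptor genes. By mean level the order was Rtn1, Rtn3, Omg, Lingo1, Rtn4, Rtn4r, Rtn4rl2 and Rtn4rl1. Rtn1 ranked 137 among the 13754 tested genes and Rtn4rl1 ranked 4460. Neighbours in this order differed beyond their spread, meaning that the mean difference within rats exceeded its SD and had 1 sign in all 3 rats, at 4 of 7 steps. The order was set from the same 3 rats, so the direction of the mean difference at each step was largely given beforehand. The steps that did not were Omg to Lingo1 (0.26 ± 0.87 on the log2(FPKM + 1) scale, SD, n = 3 rats), Lingo1 to Rtn4 (0.13 ± 0.88) and Rtn4rl2 to Rtn4rl1 (0.09 ± 0.15). Omg was above Rtn4 in each of the 3 rats, while the place of Lingo1 among them differed between rats, as did the order of Rtn4rl2 and Rtn4rl1.

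**Figure D1:**
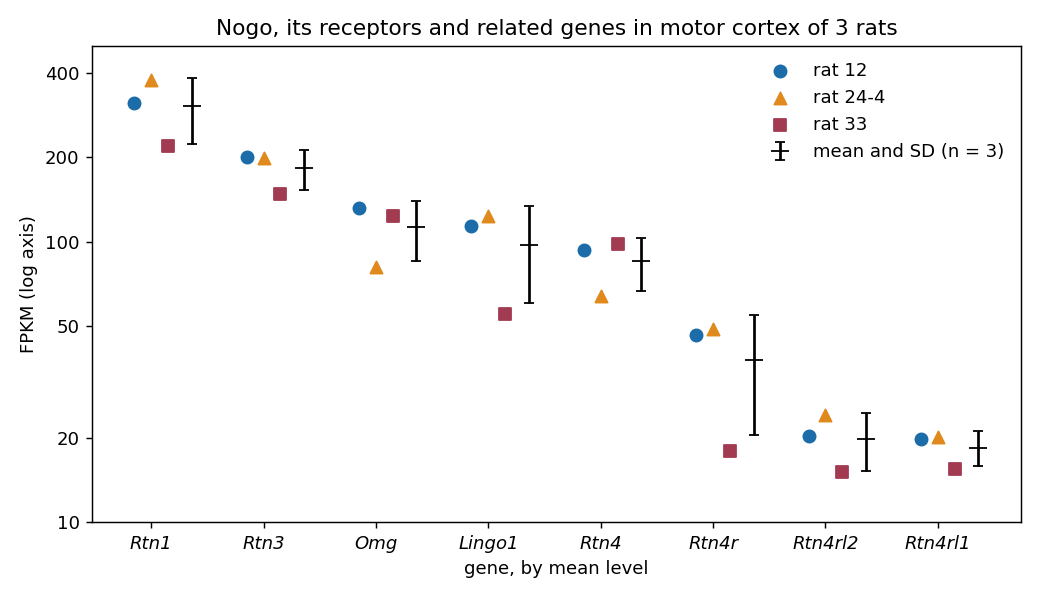
FPKM of the 8 genes in each rat (points, log axis) with the mean and SD over 3 rats (black), ordered by mean. The genes span from 18.5 for Rtn4rl1 to 304 for Rtn1, and 6 of the 8 are lowest in rat 33.

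The ligand genes Rtn4 and Omg were lowest in rat 24-4. Rtn4 (ENSRNOG00000004621, chromosome 14, 114126943 to 114174458, plus strand, Rnor_6.0) had 93.3, 64.3 and 97.9 FPKM in rats 12, 24-4 and 33, a mean of 85.2 ± 18.2 (SD, n = 3). Rats 12 and 33 lay close together, and the highest value was 1.52 times the lowest. Omg (ENSRNOG00000014107, chromosome 10, 66845654 to 66848388, minus strand) encodes the oligodendrocyte-myelin glycoprotein, a lipid-anchored surface protein that neurons also make. Its FPKM was 133, 81.7 and 124 in the same order of rats, a mean of 113 ± 27.2. Here too rat 24-4 stood below the others, by a similar proportion. The locus of Omg lies wholly within that of Nf1 (chromosome 10, 66690133 to 66928903) on the opposite strand, and the labels do not say whether strand was used in counting, so reads of the 2 genes may have been mixed. Nf1 itself had 10.7, 8.80 and 8.65 FPKM.

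Mag, the remaining classical ligand gene and no member of the 8, had another order. It encodes myelin-associated glycoprotein of the inner myelin layer, and its FPKM was 165, 264 and 380 in rats 12, 24-4 and 33. It was thus lowest in rat 12, where Omg was highest. Within rats, Omg minus Mag was -0.31, -1.68 and -1.61 on the log2(FPKM + 1) scale in the same order. Of all genes tested, 37.9% were lowest in rat 12, and of the oligodendrocyte markers, 9 matched of 9, 6 were. All 9 markers were highest in rat 33. Their summed level was 5750, 7493 and 12926 FPKM, with Mbp at the top (2334, 3669 and 5460) and Ermn lowest by mean (62.6, 40.6 and 131, limma unadjusted p = 0.0418, adjusted p = 0.809). The part of these markers in the values of Mag was not tested. The median deviation of the list from the mean of the rats was -0.42, -0.09 and 0.60, against 0.26, -0.43 and 0.16 for Omg and 0.15, -0.38 and 0.22 for Rtn4.

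Rtn4r, the Nogo receptor gene, had the widest spread of the 8. Rtn4r (ENSRNOG00000030920, chromosome 11, 86992399 to 87017115, minus strand) had 46.4, 49.0 and 17.9 FPKM in rats 12, 24-4 and 33, a mean of 37.8 ± 17.2. Rats 12 and 24-4 were nearly equal and rat 33 was far below them, so the highest value was 2.73 times the lowest. Limma gave an unadjusted p of 0.0433 and an adjusted p of 0.810 for variation beyond that of genes of its level. The unadjusted value ranged from 0.0166 to 0.889 over the alternatives. It was 0.889 without rat 33, 0.0506 with a filter at 0.1 FPKM, 0.0732 with no filter and 0.0515 without mitochondrial transcripts.

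The paralogous receptor genes were lower and steadier. Rtn4rl1 (ENSRNOG00000003121, chromosome 10, 62035738 to 62109110, plus strand), whose product also binds chondroitin sulfate proteoglycans of scars, had 19.7, 20.2 and 15.4 FPKM, a mean of 18.5 ± 2.64. Its ratio of highest to lowest was 1.31, the smallest of the 8. Rtn4rl2 (ENSRNOG00000021513, chromosome 3, 72273424 to 72289310, minus strand), whose product binds MAG, had 20.3, 24.2 and 15.1 FPKM, a mean of 19.9 ± 4.58. Both were lowest in rat 33, like Rtn4r, but by less. Of the summed FPKM of the receptor genes, which was 86.4, 93.5 and 48.4, Rtn4r took 53.7% in rat 12, 52.5% in rat 24-4 and 37.0% in rat 33. In rat 33 Rtn4rl1 (31.8%) and Rtn4rl2 (31.1%) were each close to Rtn4r, while in the other rats Rtn4r had more than both together.

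Lingo1, the coreceptor gene, had the order of rats seen for Rtn4r. Lingo1 (ENSRNOG00000017193, chromosome 8, 61274017 to 61290240, minus strand) had 114, 123 and 55.3 FPKM in rats 12, 24-4 and 33, a mean of 97.6 ± 36.9. Rat 33 again stood apart below, and the highest value was 2.23 times the lowest (limma unadjusted p = 0.135, adjusted p = 0.976). Lingo1 was above Rtn4r in each rat, with differences of 1.28, 1.31 and 1.57 on the log2(FPKM + 1) scale. The other LINGO genes were far lower: Lingo2 had 6.199, 2.59 and 2.39 FPKM and Lingo3 3.61, 8.30 and 2.61. Lingo4, at 0.289, 0.124 and 0.0706, was the lowest and below the filter for testing. All 3 tested LINGO genes were lowest in rat 33, against 28.9% of all genes tested. Lingo2 was nearly equal in rats 24-4 and 33, so it did not follow Lingo1.

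The further receptor and coreceptor genes of the pathway ran the other way. Ngfr, which encodes the low-affinity neurotrophin receptor, had 0.220, 0.641 and 1.35 FPKM in rats 12, 24-4 and 33, too low on average for testing. A gene of 1 kb with 3 fragments would have 0.196, 0.174 and 0.231 FPKM in these libraries. A longer transcript would rest on more fragments at the same FPKM. The length of the Ngfr transcript was not used here, so the number of fragments behind the value in rat 12 is not known. Tnfrsf19, which encodes TROY, a receptor that can take the place of Ngfr, had 6.19, 9.81 and 12.3 FPKM. S1pr2, a lipid receptor reported to bind another part of Nogo-A, had 1.73, 3.49 and 4.34. Each of these genes was lowest in rat 12 and highest in rat 33. Of the 7 genes of receptors and coreceptors, 6 were tested, 0 passed at an adjusted p under 0.05 with limma and 1, Rtn4r, at an unadjusted p under 0.05. Among all genes tested, 0.102% passed with adjustment and 5.96% without.

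Rtn1 and Rtn3, the reticulon paralogs, exceeded Rtn4 in every rat. Rtn1 (ENSRNOG00000004794, chromosome 6, 94951020 to 95061174, minus strand), a neuronal reticulon of the endoplasmic reticulum, had 314, 379 and 219 FPKM, a mean of 304 ± 80.2. It was highest in rat 24-4, where Rtn4 was lowest. Rtn3 (ENSRNOG00000021202, chromosome 1, 222677365 to 222734241, minus strand), known to bind and restrain the amyloid-forming protease BACE1, had 202, 199 and 149 FPKM, a mean of 183 ± 29.7. Its values in rats 12 and 24-4 were almost the same, with rat 33 below. Rtn2, no member of the 8, had 41.6, 54.3 and 21.1 FPKM and was likewise lowest in rat 33.

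Rtn4 took a different share of the reticulon transcripts in each rat. The summed FPKM of Rtn1, Rtn2, Rtn3 and Rtn4 was 651, 696 and 487 in rats 12, 24-4 and 33. Rtn4 made up 14.3%, 9.23% and 20.1% of it, a mean of 14.6% ± 5.43 (SD, n = 3). Rtn1 made up 49.2% ± 4.78 and Rtn3 30.02% ± 1.31. The share of Rtn3 thus moved by less than 3 percentage points, while that of Rtn4 in rat 33 was more than double that in rat 24-4. Such shares do not depend on library scaling.

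**Figure D2:**
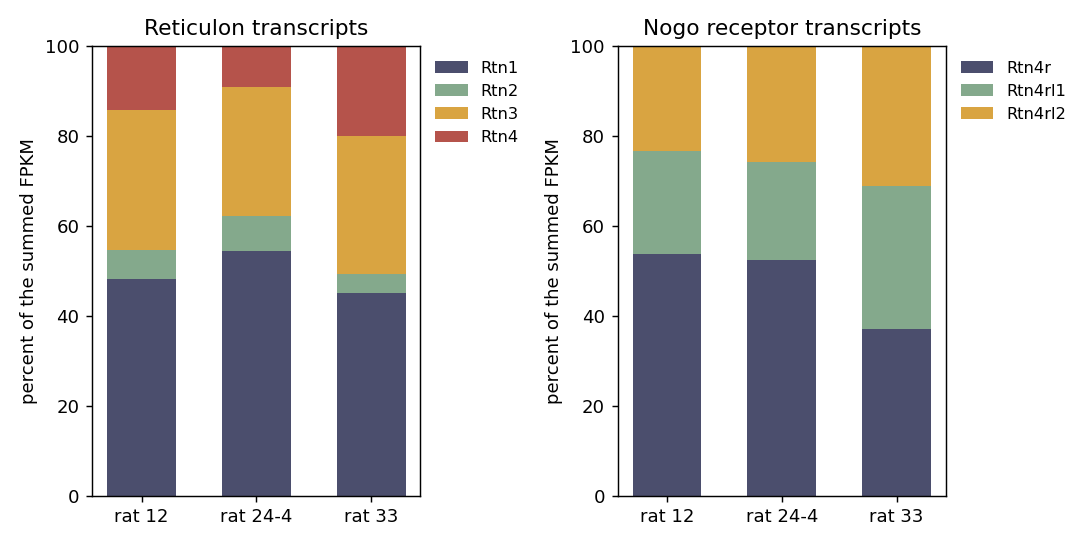
Percent of summed FPKM taken by each reticulon gene (left) and each Nogo receptor gene (right) in each rat, as stacked bars from 0 to 100. Rtn4 takes 9.23% to 20.1% of reticulon transcripts, and Rtn4r 37.0% to 53.7% of receptor transcripts, the latter lowest in rat 33.

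The ratio of Nogo to Nogo receptor transcripts was highest in rat 33. The FPKM of Rtn4 was 2.01 times that of Rtn4r in rat 12, 1.31 times in rat 24-4 and 5.46 times in rat 33. On the log2(FPKM + 1) scale the difference was 1.254 ± 1.025 (SD, n = 3), positive in 3 of 3 rats, and without rat 33 it was 0.69. Rtn1 minus Rtn4 was 1.81 ± 0.70, Rtn1 minus Rtn3 0.71 ± 0.20 and Rtn4 minus Rtn3 -1.10 ± 0.51. Rtn4 minus Omg was -0.39 ± 0.10, the steadiest of the 11 differences compared. Rtn4r exceeded Rtn4rl1 by 0.88 ± 0.58 and Rtn4rl2 by 0.79 ± 0.49. In 10 of the 11 pairs the 3 rats had the same sign, the exception being Rtn4rl1 minus Rtn4rl2 (-0.04, -0.25 and 0.03). The exact sign-flip test, two-sided, gave p = 0.25 for each of the 10, adjusted p = 0.275, and 0.25 is the smallest p that 3 rats allow, so no pair could pass 0.05.

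**Figure D3:**
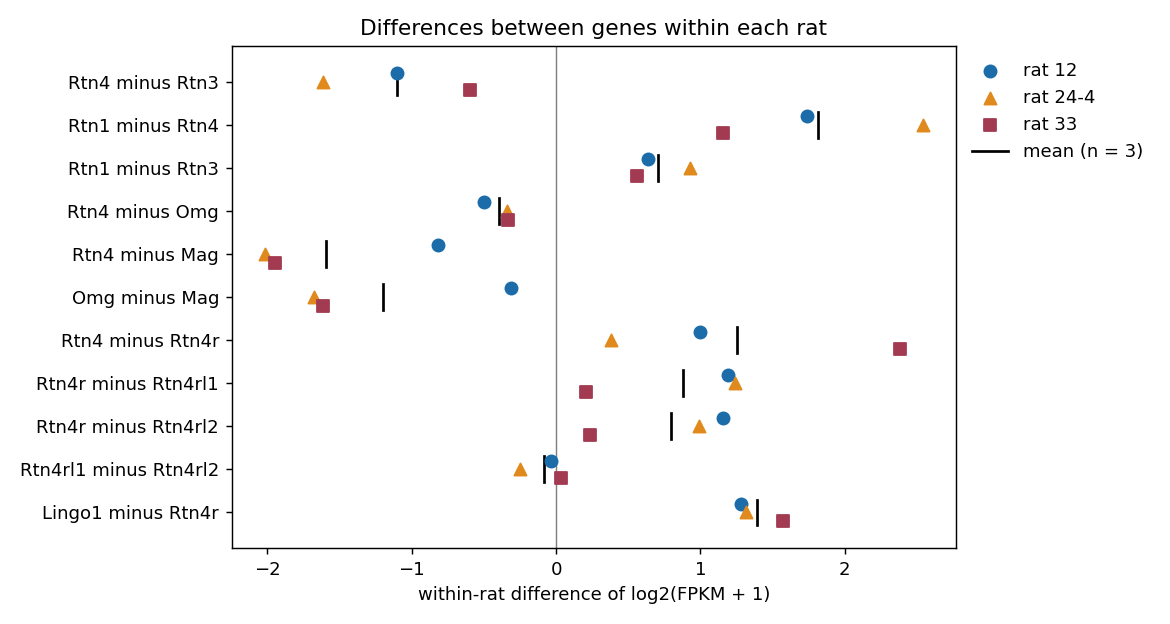
Within-rat differences of log2(FPKM + 1) for the 11 pairs of genes, 1 point per rat, with the mean as a black line. Rtn4 minus Rtn4r spreads from 0.38 in rat 24-4 to 2.38 in rat 33, whereas Rtn4 minus Omg lies between -0.50 and -0.33.

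In all, 6 of the 8 genes were lowest in rat 33 and 2 in rat 24-4. Among all genes tested, 28.9% were lowest in rat 33, 33.3% in rat 24-4 and 37.9% in rat 12. These shares depend on the scaling: in the same order of rats they were 34.4%, 34.6% and 31.0% with median ratio scaling and 29.3%, 43.8% and 27.0% without the mitochondrial genome. The median deviation of the 8 genes from the mean of the rats was 0.15, 0.22 and -0.32 in rats 12, 24-4 and 33, against -0.06, 0.01 and 0.07 over all genes tested. With limma, 0 of the 8 were called variable beyond genes of similar level after adjustment (adjusted p under 0.05), where 0.102% of all genes were. An unadjusted p under 0.05 was had by 1, where 5.96% had it. The 5 choroid plexus genes called had highest values at least 84.3 times the lowest, against at most 2.73 among the 8. With 3 rats, 0 calls therefore do not show that the 8 were steady. The lowest adjusted p was 0.810, for Rtn4r. The median SD of the 8 genes on the log2(FPKM + 1) scale was 0.35, and that of all genes tested was 0.32.

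Most neuronal markers were lowest in rat 33 as well. All 5 glutamatergic markers and all 5 GABAergic markers had their lowest value there, as did 4 of 6 general neuronal markers. The other 2, Snap25 (1178, 379 and 440 FPKM) and Nefm, were lowest in rat 24-4. No marker of these lists was at 0. The highest of the general list was Snap25 and of the GABAergic list Sst, with Rbfox3 and Slc32a1 lowest. The summed level of the glutamatergic list was 2017, 2105 and 984 FPKM in rats 12, 24-4 and 33, that of the GABAergic list 449, 504 and 259, and that of the general list 2308, 1250 and 1058. The glutamatergic list had median deviations of 0.52, 0.45 and -0.92, beside 0.41, 0.49 and -0.91 for Rtn4r and 0.31, 0.42 and -0.73 for Lingo1. The GABAergic list, at 0.47, 0.40 and -0.51, was less low in rat 33. The general list, at 0.65, -0.11 and -0.45, was high in rat 12 only. Rtn2, outside the receptor complex, had 0.19, 0.57 and -0.76. In the glutamatergic list Tbr1 (43.1, 36.9 and 11.7 FPKM) had a limma unadjusted p of 0.0137. Nrgn, a postsynaptic calmodulin-binding protein gene, was highest in that list (931, 770 and 383). The parvalbumin gene Pvalb (158, 149 and 51.8), Rbfox3 (95.1, 62.2 and 25.2) and the neurofilament gene Nefm (207, 58.6 and 65.02) had limma unadjusted p-values of 0.0379, 0.0205 and 0.0208. Adjusted over all genes, none of these passed (limma adjusted p from 0.608 to 0.797). In bulk tissue fewer neurons and less of a transcript per neuron cannot be told apart, and the part of these markers in the values of Rtn4r and Lingo1 was not tested.

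**Figure D4:**
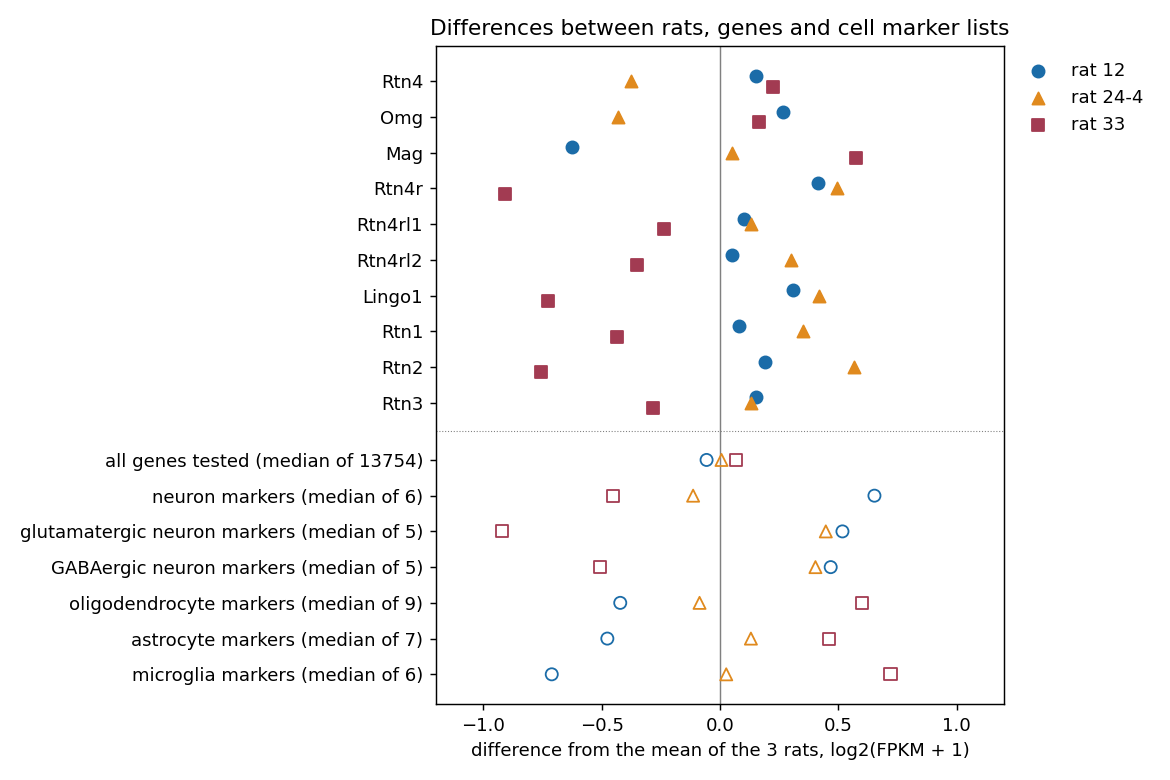
Difference of each rat from the mean of the 3 rats on the log2(FPKM + 1) scale, for single genes (filled) and for the median of cell marker lists and of all genes tested (open). In rat 33 Rtn4r (-0.91) and Lingo1 (-0.73) lie low beside the glutamatergic markers (-0.92), while Rtn4 (0.22) and Omg (0.16) do not. Rtn2 (-0.76), Rtn1 (-0.43), the GABAergic markers (-0.51) and the general neuronal markers (-0.45) are low there too.

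The medians of the glial marker lists were higher in rat 33 than in rat 12. Astrocyte markers had median deviations of -0.48, 0.13 and 0.46 in rats 12, 24-4 and 33, with S100b highest (568, 818 and 864 FPKM) and Aldh1l1 lowest (4.81, 5.90 and 12.1). Of the 7, 6 were lowest in rat 12, against 37.9% of all genes tested, while 4 were highest in rat 33 and 3 in rat 24-4. Aldoc (269, 286 and 232) was lowest in rat 33, and Slc1a2 (153, 184 and 161) differed little. Aqp4 (8.64, 29.4 and 26.7) and the glutamate transporter gene Slc1a3 (29.7, 30.2 and 111) had limma unadjusted p-values of 0.0173 and 0.0109. Reactive astrocyte markers, 4 matched of 5, had median deviations of -1.32, 0.08 and 1.24, with Gfap (271, 937 and 1585), Vim (60.6, 123 and 368) and Lcn2 (1.17, 10.2 and 22.5) at unadjusted p-values of 0.0150, 0.00627 and 0.000505, and Osmr lowest (0.831, 0.862 and 1.98). All 6 microglial markers were lowest in rat 12 and highest in rat 33, from C1qa (44.4, 89.5 and 153, limma unadjusted p = 0.0360) to Aif1 (5.04, 9.37 and 15.8). No gene of these lists passed the limma test after adjustment. Oligodendrocyte precursor markers, from Olig1 down to Cspg4 in level, had median deviations of -0.47, 0.17 and 0.29. Endothelial markers, 3 matched of 4 and led by Cldn5 with Kdr lowest, had -0.14, -0.17 and 0.14. The dentate gyrus list, 2 tested of 3 with Dsp below the filter, had -1.02, 0.08 and 0.94, and its C1ql2 (0.859, 8.79 and 12.7 FPKM) had a limma unadjusted p of 0.00157.

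Genes of proteins that bind and block the Nogo receptor had mean levels of 37.2 FPKM (Lgi1), 39.05 (Crtac1) and 238 (Olfm1), beside 37.8 for Rtn4r. Olfm1, an olfactomedin secreted by neurons, was the highest of the 3, at 289, 259 and 164 FPKM in rats 12, 24-4 and 33. Lgi1, a secreted synaptic protein gene, had 46.0, 31.6 and 34.0, and Crtac1, which encodes LOTUS, had 34.7, 47.5 and 34.9. In rat 33, where Rtn4r was at 17.9 FPKM, Crtac1 was at almost its value in rat 12. None of the 3 had a limma unadjusted p under 0.05.

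The RhoA arm downstream of the receptor had no common order of rats. Of its 11 genes, 6 were lowest in rat 12, 3 in rat 24-4 and 2 in rat 33. The shares over all genes tested were 37.9%, 33.3% and 28.9%. The median deviations of the 11 were -0.10, 0.19 and 0.07. Cfl1, the actin-severing protein cofilin, was highest, at 657, 956 and 849 FPKM, and the cofilin phosphatase gene Ssh1 was lowest, at 3.76, 4.85 and 4.33. Rhoa had 140, 196 and 218. The kinase genes Rock1 (20.3, 8.57 and 23.4) and Rock2 (46.0, 18.1 and 32.1) were lowest in rat 24-4, as Rtn4 and Omg were. Kalrn, a guanine nucleotide exchange factor of dendritic spines, had 56.7, 49.7 and 20.3 and was the 1 gene of the 11 with a limma unadjusted p under 0.05, at 0.0466 (limma adjusted p = 0.814). Limk1, a kinase of cofilin, had 24.7, 36.8 and 13.6, and both it and Kalrn were lowest in rat 33.

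Genes that shape the endoplasmic reticulum, the site of most reticulon protein, had a median SD of 0.31 on the log2(FPKM + 1) scale, against 0.48 for the receptors and coreceptors and 0.32 for all genes tested. Of 14 listed, 13 were matched, and 0 had a limma unadjusted p under 0.05. Their median deviations were 0.05, 0.03 and -0.11. Reep5 was highest, at 127, 142 and 120 FPKM, and Reep4 lowest, at 2.39, 3.25 and 4.83. Atl1, a membrane-fusing GTPase of neurons, had 73.1, 60.7 and 47.4, and Reep2 had 61.4, 61.4 and 34.7. Of the 13, 7 were lowest in rat 33, against 28.9% of all genes tested.

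Likeness of pattern was measured as the Euclidean distance between deviations of log2(FPKM + 1) over the 3 rats, among 6924 named genes with a mean of at least 10 FPKM. Nearest to Rtn4 were Pmepa1 (19.2, 12.7 and 20.1 FPKM in rats 12, 24-4 and 33, distance 0.022), Atad1 and Lgr4, and nearest to Omg was Etf1 (32.4, 19.7 and 30.3, distance 0.0022), then Srsf10 and Synj2bp. Nearest to Rtn4r were Rasgrp1 (131, 141 and 51.3, distance 0.027), Fbxo41 and Cap2, and nearest to Lingo1 were Asic1 (14.9, 16.4 and 6.80, distance 0.016), Bcl11a and Dbndd1. Rtn1 had Yars, Nicn1 and Lhfpl4 nearest, Rtn3 had Snx10, Zbtb16 and Cd200, Rtn4rl1 had Smpd3, Msl1 and Icmt, and Rtn4rl2 had Zfp385a and Actr1b. Only 3 points enter each distance, so many genes lay near. The distance was not scaled to the size of the deviations, so it reflects that size as well as the order of rats. Within 0.2 there were 56 genes for Rtn4r (SD 0.79 on the log2(FPKM + 1) scale) and 150 for Lingo1 (SD 0.63). For Rtn4 (SD 0.33) there were 390 and for Rtn4rl1 (SD 0.20) 709. These counts therefore do not show how rare a pattern is. Among the 8 genes themselves, the closest pairs were Rtn4rl1 with Rtn3 (0.07), Rtn4rl2 with Rtn1 (0.10) and Rtn4 with Omg (0.14). Rtn4rl1 and Rtn3 also had the smallest SDs of the 8, 0.20 and 0.25. The farthest pair was Rtn4 with its receptor Rtn4r (1.45).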

How the data were processed

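The deposited values are FPKM, 1 column per rat. Per the series' text, the authors made them by counting fragments for each gene, followed by a normalization that is not described. The submitters' processing notes name HISAT2 (version 2.0.4), StringTie (version 1.3.0) and the build Rnor_6.0. Library depth came from low values of loci up to 400 bp, where 91.3% to 92.2% of low values were whole fragments within 0.02; with it, 1 kb at 1 FPKM rests on 13.0 to 17.2 fragments. No values above 0 were equal between files.

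Variation between rats was tested with limma (version 3.58.1, R 4.3.3) on log2(FPKM + 1), a scale that understates differences of low genes, for the 13754 genes with a mean of at least 1 FPKM. An intercept was fitted with a trended, robust prior (7.96 degrees of freedom), and residual over prior variance was compared with F, one-sided, with Benjamini-Hochberg adjustment over all genes. The test was tested on simulated data. Figures and other values used Python 3.11.15, pandas 2.3.3 and scipy 1.17.1.

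The 8 members and the 18 lists (106 genes, 102 matched; Lnpk, Otx2, Pecam1 and Serpina3n were not) were chosen with earlier results of these data known. Named were the members, Mag, the highest and lowest gene of a list, genes with an unadjusted p under 0.05 and the 3 nearest genes of each member, of which some are not reported here; others, such as the further Rtn, Lingo, Rock and coreceptor genes, were chosen after their values were seen. Alternatives were a pseudocount of 0.1, other filters, a prior that is not robust, median ratio scaling, leaving out the mitochondrial genome, and leaving out each rat.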

Additional observations from a re-analysis of the deposited data

How the results depend on the processing

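The number of members called variable between rats was 0 under all 9 alternatives, and their adjusted p-values lay between 0.559 and 0.999 (limma). The count over all genes, 14, was 23 with a pseudocount of 0.1, 8 with median ratio scaling, and 0 when the filter was a mean of 0.1 FPKM or was dropped, with a prior that is not robust, or without the mitochondrial genome, where 903, 864, 733 and 624 genes had an unadjusted p under 0.05. Leaving out a rat gave 0 to 104 genes: 104 without rat 12, 0 without rat 24-4 (655 unadjusted) and 64 without rat 33. The prior was estimated anew each time. Of 66 pair differences, none changed sign. For the 10 pairs with the same sign in all 3 rats, leaving out a rat could not change it. Rescaling a library nearly cancels in a difference within a rat, so few of these cases were open. Mean levels moved by more than 1 SD in 5 of 40 cases, all without the mitochondrial genome, which raises every other value by construction: Rtn4 to 109 FPKM, Omg to 144, Rtn3 to 232, Rtn4rl1 to 23.3 and Rtn4rl2 to 24.99. Among the 40, only the rescalings could move so far. With 3 rats, leaving out 1 cannot move a mean by more than 1 SD. All 21 reticulon and receptor shares with a rat left out stayed within 1 SD, which was fixed in advance for the same reason. No paired comparison of treatments was possible because there is 1 group. The number of rats, 3, limits what the test can call, and genes near 1 FPKM rest on few fragments.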
